A study of Mus musculus with 12 samples.

Results

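Collagens, laminins and integrins were followed across mouse livers and liver tumors, as the proteins that build the extracellular matrix and the receptors that bind it. Members were all genes of the count files whose symbol named a collagen alpha chain (Col, a number, a and a number), a laminin chain (Lama, Lamb or Lamc and a digit) or began with Itga or Itgb. The rule used the names only and found 86 of 24421 genes, which were 44 collagen chains, 11 laminin chains and 31 symbols of the integrin kind. Of these 31, 4 (Itgb1bp1, Itgb1bp2, Itgb3bp and Itgbl1) do not encode integrin subunits. Reads were counted for 84 of the 86 members, and the collagen genes Col19a1 and Col26a1 were at 0 in every library.

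The samples were 6 liver tumors and 6 non-tumoral livers, sequenced as poly(A) RNA from bulk tissue. The p21+/Tert mice (label p21Tert) gave 4 tumors (named here T-662, T-663, T-941 and T-992 by the mouse number in the labels) and 4 non-tumoral livers (NT-961, NT-663, NT-941 and NT-992), and the p21+/TertCi mice (label p21TertCi) gave tumors TCi-981 and TCi-984 and livers NTCi-981 and NTCi-984. Both genotypes carry a transgene under the Cdkn1a (p21) promoter, which drives Tert, the catalytic subunit of telomerase, or in p21+/TertCi mice its catalytically inactive form. In both the endogenous Tert gene is kept, the animals were old and ate a standard diet, and each tumor is 1 lesion of 1 animal. Tumor and liver libraries with the same number come from the same mouse, and liver NT-961 has no tumor of its number. The header of the count file and the table of the study give this liver the number of the mouse of T-662, and it is called here by its label. Driver classes follow the exome calls of the study. Tumors T-662 and T-663 carry Ctnnb1 (beta-catenin) mutations, tumor T-941 an Egfr and tumor TCi-981 an Hras mutation, and tumors T-992 and TCi-984 neither. The study named tumors T-992 and TCi-984 as adenomas and the others as carcinomas, although its histology table lists tumor T-663 as an adenoma. Both Ctnnb1 tumors are p21+/Tert, so that driver and genotype cannot be told apart for this class beyond a fit with genotype as a covariate. Total counts per library ran from 14571716 to 26170661.

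Basement membranes are thin sheets under epithelia and around vessels, in which a network of type IV collagen and a network of laminins are joined by nidogen and perlecan. Healthy liver is unusual in that its sinusoids, the capillaries lined by fenestrated endothelium, have no continuous basement membrane, whereas vessels, bile ducts and nerves do. Fibrillar collagens form the tension-bearing fibers of the interstitial matrix and are made in liver mainly by stellate cells and portal fibroblasts. Integrins are pairs of an alpha and a beta subunit that bind matrix or other cells from the cell surface.

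The type IV collagen genes lie in head-to-head pairs, and the DNA at their start sites is shown here because the chains of 1 pair are compared below. In the GENCODE vM21 annotation of GRCm38 (mm10), Col4a1 (minus strand, chr8:11198423-11312826) and Col4a2 (plus strand, chr8:11312805-11449287) share 22 bases of their first exons. The starts of Col4a4 (minus strand, chr1:82448423-82586849) and Col4a3 (plus strand, chr1:82586921-82722059) lie on either side of a gap of 71 bases, and those of Col4a6 and Col4a5 on chromosome X on either side of 1308 bases. The sequences below are from RefSeq (GRCm38.p6), written on the plus strand for the pairs and on the gene's strand for Lama5 and Col3a1, for which the 250 bases before the start are given. Lama5 (chr2:180176373-180225859, minus strand) encodes the laminin chain that rose in each tumor class, and Col3a1 a fibrillar collagen that passed the test in none. Capitals mark the motifs searched on both strands. These were the GC box with the letters GGGCGG, the CCAAT box spelled by its name, and the TATA box with the letters TATAAA. The AP-1 motif was searched as TGANTCA, where N is any base. The motif of TEAD factors was searched as CATTCC, and that of TCF/LEF factors, the partners of beta-catenin, was searched as CTTTGAT. None of these motifs contains another.
Bases shared by Col4a2 and Col4a1 (chr8:11312805-11312826): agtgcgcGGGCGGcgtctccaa
Between Col4a4 and Col4a3 (chr1:82586850-82586920): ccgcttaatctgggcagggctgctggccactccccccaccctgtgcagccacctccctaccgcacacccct
Before Lama5 (chr2:180225860-180226109): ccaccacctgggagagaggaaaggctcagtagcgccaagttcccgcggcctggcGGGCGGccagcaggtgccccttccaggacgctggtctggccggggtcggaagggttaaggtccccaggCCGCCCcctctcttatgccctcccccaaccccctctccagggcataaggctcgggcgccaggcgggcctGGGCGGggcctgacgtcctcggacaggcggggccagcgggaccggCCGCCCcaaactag
Before Col3a1 (chr1:45311288-45311537): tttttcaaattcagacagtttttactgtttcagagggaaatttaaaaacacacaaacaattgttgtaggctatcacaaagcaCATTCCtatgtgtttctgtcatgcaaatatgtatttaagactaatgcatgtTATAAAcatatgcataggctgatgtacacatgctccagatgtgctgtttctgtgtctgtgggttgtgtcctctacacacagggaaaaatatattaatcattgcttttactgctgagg

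The Col4a2 and Col4a1 overlap held 1 GC box, the Lama5 stretch 4 GC boxes and the gap of Col4a4 and Col4a3 none of the motifs. The Col3a1 stretch held 1 TATA box and 1 TEAD motif and no GC box. Over the 300 base windows of RefSeq (250 bases before to 50 after a start), a window was found for 62 of the 86 members. The GC box stood in 34 of these 62 (54.8%) and in 35.7% of all 32851 windows, CCAAT in 25.8% and 37.4%, and TATAAA in 8.06% and 13.6%. The AP-1 letters stood in 4.84% of the members' windows and 7.81% of all windows, the TEAD letters in 8.06% and 14.7%, and the TCF/LEF letters in 1.61% and 3.73%. A match of letters is a description and no evidence of binding, and windows of pairs overlap.

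Levels are given as CPM (counts as a share of the library total, scaled by the TMM method), with the lowest, the median and the highest of the 6 livers and each tumor by its number. Differences are log2 fold changes ± SE from edgeR's quasi-likelihood test, called at a Benjamini-Hochberg adjusted p below 0.05 over all genes tested. Comparisons with the livers use the same 6 livers. In bulk tissue a higher share of a cell type and more RNA per cell cannot be told apart.

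In tumors against livers, 12 of the 63 members tested rose and none fell, where 6.77% of all 13822 genes tested rose and 3.91% fell. None fell by edgeR's test, with 4 members and 1622 of all genes lower at an unadjusted p below 0.05, and 2 members and 954 of all genes lower by DESeq2. The 12 were 9 of the 16 basement membrane members tested (type IV collagens and laminins), the laminin-binding integrin subunits Itga3 and Itga6, and Itgav. The median log2 fold change of the basement membrane members was 1.81, that of the 8 fibrillar collagens tested 0.47 and that of all genes 0.01. None of the 8 fibrillar collagens passed the test, the lowest adjusted p being 0.0634 for Col5a3, which was lower in tumors. With the replicate block, which pairs the tumor and liver of a mouse, 16 members rose and 3 fell (Col13a1, Lama1 and Col5a3), and the 16 included Col1a1 and Col1a2, where 1031 of all genes rose and 837 fell. With the block Col4a4 had an adjusted p of 0.0708. The 12 became 7 without liver NT-961 or without liver NT-663, where 581 and 655 of all genes rose, against 936 in the main fit. The calls of Itgav, Itga3, Col4a4, Lamb2 and Lamc1 were lost in 9, 8, 6, 6 and 5 of the 12 fits without 1 library, and the other 7 in none.

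By driver class, 17 of the 71 members tested rose in the 4 other tumors (T-941, TCi-981, T-992 and TCi-984) against livers and 4 fell, where 11.3% of all genes rose and 11.5% fell. In the 2 Ctnnb1 tumors 2 members rose against livers and 4 fell, where 5% of all genes rose and 3.2% fell. Set against each other, Ctnnb1 tumors had 1 member higher and 12 lower than the other tumors, where 6.76% of all 15182 genes tested were higher and 5.72% lower. The median log2 difference of the 71 members between these classes was -0.94, against 0 for all genes to 2 decimals. Without tumor T-662 or T-663, which leaves 1 tumor in the class, fewer members were called lower, and so were fewer of all genes. In the same fits fewer members, and fewer of all genes, were called lower in Ctnnb1 tumors than in livers. The 4 that fell in Ctnnb1 tumors against livers became 2 without liver NT-663, where 353 of all genes fell, against 486 in the main fit. Without tumor TCi-981 or TCi-984 fewer members, and fewer of all genes, were called lower in the other tumors. With the replicate block by label numbers, which leaves tumor T-662 with no liver, the counts of Ctnnb1 against other tumors were 0 higher and 1 lower, and of Ctnnb1 tumors against livers 0 higher and 1 lower. Over all 15182 genes this block gave 24 higher and 43 lower, and 7 higher and 19 lower. The 13 members called between the classes had an adjusted p of 0.0507 to 0.513 with the block, and the 6 called in Ctnnb1 tumors against livers 0.0959 to 0.285. The 1 member called under the block was in both comparisons Col5a2, whose level in liver NT-663 stood apart (106 CPM). Taking liver NT-961 as that of mouse M-662 gave 1 higher and 4 lower against other tumors (219 and 222 of all genes), and 4 higher and 4 lower against livers (459 and 392 of all genes). The 4 lower than in other tumors were Col4a3, Col4a4, Col4a5 and Itga6.

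**Figure D1:**
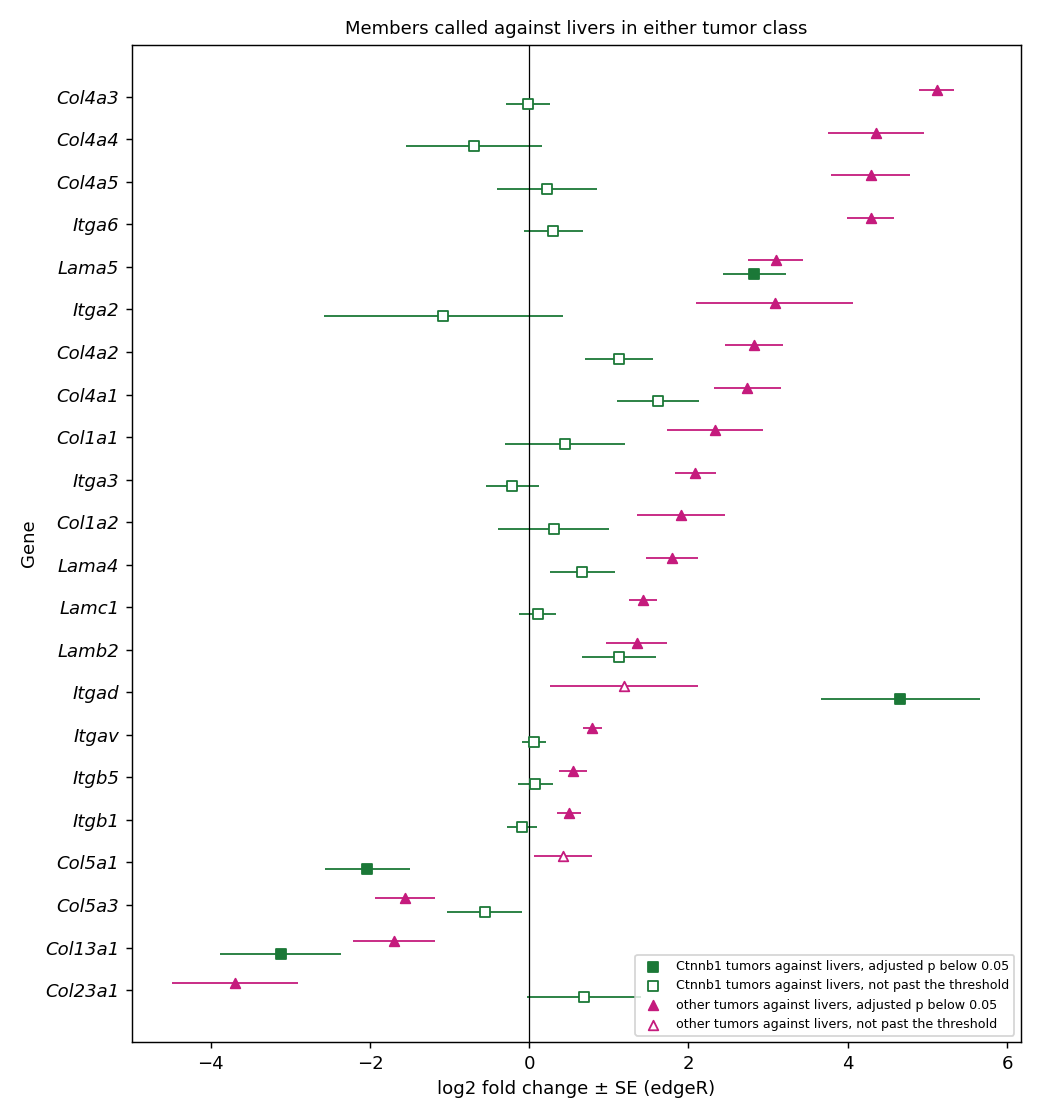
Log2 fold changes against the 6 livers, with SE, of the members called in Ctnnb1 tumors (n = 2, green squares) or in the other tumors (n = 4, pink triangles), filled where the adjusted p was below 0.05. Col6a6 and Col25a1, at 0 in both Ctnnb1 tumors, are left out. Lama5 is filled in both classes at 2.83 and 3.09, and Col4a3 lies at -0.02 in Ctnnb1 tumors and 5.12 in the others.

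Among type IV collagens, the minor chains Col4a3, Col4a4 and Col4a5 separated the driver classes, while Col4a1 and Col4a2, the chains of nearly all basement membranes, were higher than in most livers in every tumor. The trimer of Col4a3, Col4a4 and Col4a5 is known from kidney glomerulus and lung. Col4a3 was at 0.682 to 1.48 CPM in the 6 livers (median 0.995), at 1.22 and 0.964 CPM in Ctnnb1 tumors T-662 and T-663, and at 83.3, 64.5, 20.8 and 18.7 CPM in tumors T-941, TCi-981, T-992 and TCi-984. The Ctnnb1 tumors lay within the range of the livers, and the other tumors did not overlap with either, the Egfr and Hras tumors being the highest. The log2 difference of Col4a3 was 5.12 ± 0.22, adjusted p = 4.56e-07, in other tumors against livers, -0.02 ± 0.28, adjusted p = 0.983, in Ctnnb1 tumors against livers and -5.13 ± 0.35, adjusted p = 1.36e-05, between the classes. In each of the 12 fits that left out 1 library the first and last of these calls held, with adjusted p up to 7.21e-06 and 0.000615. With the replicate block by label numbers the difference between the classes had an adjusted p of 0.0507. With liver NT-961 taken as that of mouse M-662 the call held. An unstranded count cannot tell Col4a3 from the transcript C430014B12Rik on the other strand, which shares 563 bases (5.65%) of its exons.

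Col4a4, which shares the 71 base gap with Col4a3, was at 0 to 0.636 CPM in the 6 livers (median 0.52), at 0.36 and 0.132 CPM in Ctnnb1 tumors T-662 and T-663, and at 12, 16.7, 5.63 and 3.86 CPM in tumors T-941, TCi-981, T-992 and TCi-984. As with its neighbor, only the 4 other tumors lay above the livers. Its log2 difference was 4.36 ± 0.60, adjusted p = 0.000674, in other tumors against livers and -5.05 ± 1.00, adjusted p = 0.0104, between the classes, the latter lost in 2 of 12 fits without 1 library, those without T-662 and T-663 (adjusted p up to 0.073). Col4a5, on chromosome X, was at 0.379 to 1.68 CPM in the 6 livers (median 0.831), at 0.315 and 1.93 CPM in Ctnnb1 tumors T-662 and T-663, and at 14, 23, 24.9 and 13.2 CPM in tumors T-941, TCi-981, T-992 and TCi-984. Tumor T-663 lay just above the highest liver and the 4 other tumors far above it, with 4.29 ± 0.50, adjusted p = 0.000258, for other tumors against livers and -4.07 ± 0.78, adjusted p = 0.00881, between the classes. The Col4a5 call between the classes was lost without tumor T-662 and with the replicate block by label numbers. The neighbor of Col4a5, Col4a6, 1308 bases away, did not exceed 0.57 CPM in any library and was not tested, so that the members of this pair differed in level in the other tumors.

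Col4a1 was at 6.07 to 37.8 CPM in the 6 livers (median 20.1), at 98.1 and 36.4 CPM in Ctnnb1 tumors T-662 and T-663, and at 113, 105, 194 and 196 CPM in tumors T-941, TCi-981, T-992 and TCi-984. Tumor T-663 fell just inside the livers' range and the other 5 tumors lay above it. Col4a1 rose in all tumors against livers (2.52 ± 0.47, adjusted p = 0.00552) and in the other tumors (2.74 ± 0.43, adjusted p = 0.00125). In Ctnnb1 tumors it did not pass the test (1.62 ± 0.51, adjusted p = 0.077), nor did the difference between the classes (-1.12 ± 0.61, adjusted p = 0.24). Col4a2 was at 4.17 to 26.6 CPM in the 6 livers (median 13.4), at 39 and 24.9 CPM in Ctnnb1 tumors T-662 and T-663, and at 76.9, 80.4, 120.4 and 148 CPM in tumors T-941, TCi-981, T-992 and TCi-984. Tumor T-663 again lay within the livers' range. The log2 fold change of Col4a2 was 2.51 ± 0.47, adjusted p = 0.00553, over all tumors, 2.83 ± 0.36, adjusted p = 0.00043, in the other tumors and 1.13 ± 0.43, adjusted p = 0.134, in Ctnnb1 tumors, and the difference between the classes came near the threshold (-1.70 ± 0.52, adjusted p = 0.0534). Per kilobase of exon, the level of Col4a1 in the other tumors was 20.4 ± 6.68 RPKM, which is CPM per kilobase of exon (SD, n = 4), and that of Col4a2 16.1 ± 5.15, against 4.7 ± 3.23 for Col4a3, 2.79 ± 0.896 for Col4a5 and 0.9 ± 0.559 for Col4a4. The minor chains were thus at lower levels than Col4a1 and Col4a2 where they had risen most.

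**Figure D2:**
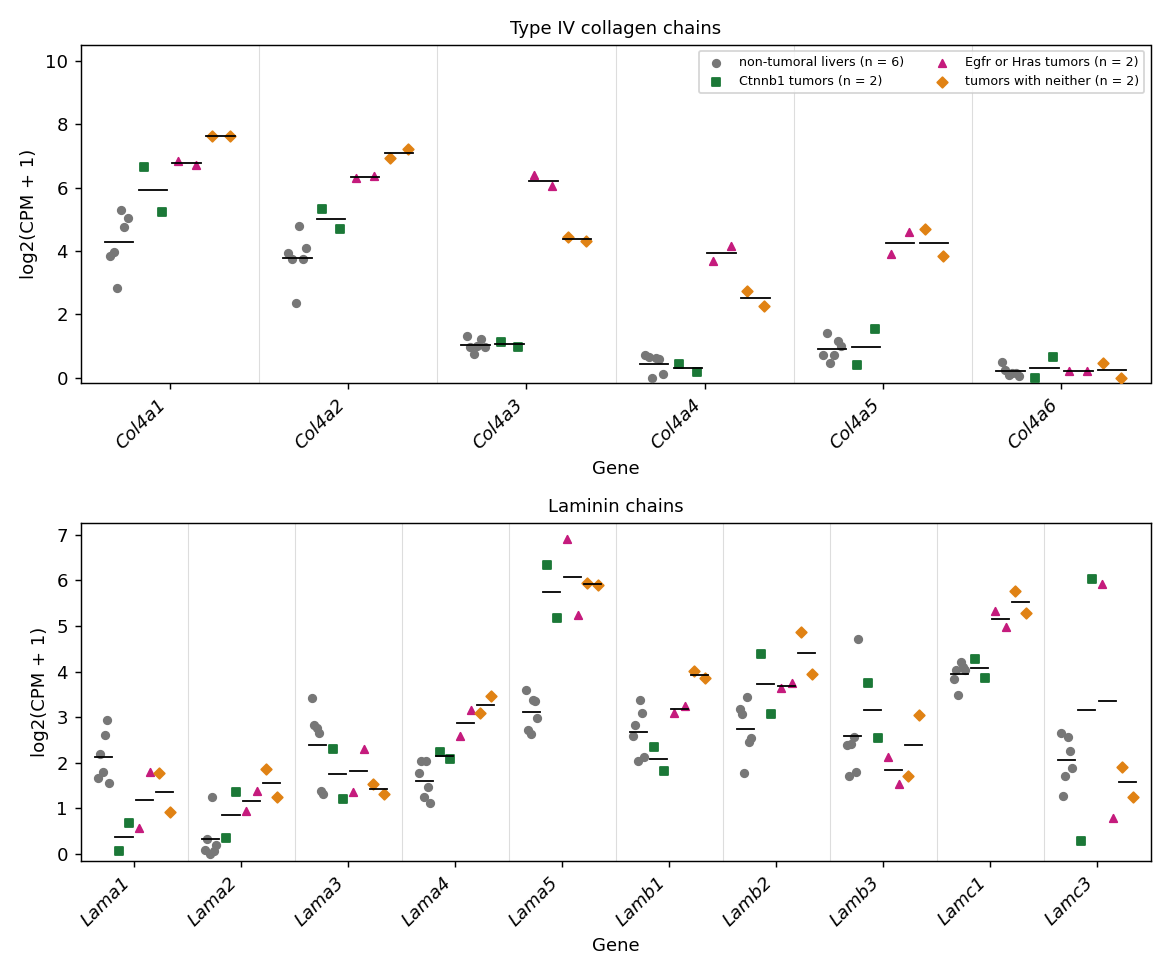
Level of type IV collagen and laminin chains, as log2(CPM + 1), in each library, with livers in grey, Ctnnb1 tumors in green, Egfr or Hras tumors in pink and tumors with neither in orange, and black bars for class means. Col4a3 and Col4a4 are above the livers in 4 tumors and within the livers' range in the 2 Ctnnb1 tumors, Col4a5 in tumor T-663 is just above that range, and Lama5 is separated from the livers in all 6.

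Laminins are trimers of an alpha, a beta and a gamma chain, and the alpha chain carries the main integrin-binding site. Lama5, an alpha chain of vessel and epithelial basement membranes, was at 5.16 to 11.1 CPM in the 6 livers (median 8.08), at 79.4 and 34.8 CPM in Ctnnb1 tumors T-662 and T-663, and at 119.6, 36.9, 60.4 and 59 CPM in tumors T-941, TCi-981, T-992 and TCi-984. All 6 tumors lay above all 6 livers. Lama5 rose in all tumors against livers (3.03 ± 0.33, adjusted p = 0.000535), in Ctnnb1 tumors (2.83 ± 0.39, adjusted p = 0.00167) and in the other tumors (3.09 ± 0.35, adjusted p = 0.000236). The classes were not shown to differ in Lama5 (-0.27 ± 0.46, adjusted p = 0.738). These calls of Lama5 against livers held in each of the 12 fits without 1 library, while with the replicate block the adjusted p was 0.219 in Ctnnb1 tumors. With liver NT-961 taken as that of mouse M-662 the call in Ctnnb1 tumors held.

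Lama4, an alpha chain of endothelial basement membranes, was at 1.16 to 3.11 CPM in the 6 livers (median 2.08), at 3.69 and 3.24 CPM in Ctnnb1 tumors T-662 and T-663, and at 5.02, 7.86, 7.52 and 10 CPM in tumors T-941, TCi-981, T-992 and TCi-984. The 6 tumors lay above the livers, tumor T-663 by little. Its log2 fold change was 1.53 ± 0.36, adjusted p = 0.0173, over all tumors, 1.79 ± 0.32, adjusted p = 0.00295, in the other tumors and 0.67 ± 0.40, adjusted p = 0.348, in Ctnnb1 tumors. Lamc1, the gamma chain of most laminins (chr1:153218922-153332786, minus strand), was at 10.2 to 17.4 CPM in the 6 livers (median 15.4), at 18.4 and 13.6 CPM in Ctnnb1 tumors T-662 and T-663, and at 39.2, 30.5, 53.4 and 37.8 CPM in tumors T-941, TCi-981, T-992 and TCi-984. The other tumors stood above both livers and Ctnnb1 tumors, with 1.43 ± 0.18, adjusted p = 0.000399, against livers and -1.32 ± 0.26, adjusted p = 0.0101, between the classes. The call between the classes was lost in 1 of 12 fits without 1 library, that without T-663, with adjusted p up to 0.0845.

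The beta chain Lamb2 was at 2.43 to 9.93 CPM in the 6 livers (median 6.11), at 20 and 7.41 CPM in Ctnnb1 tumors T-662 and T-663, and at 11.4, 12.4, 28.1 and 14.4 CPM in tumors T-941, TCi-981, T-992 and TCi-984. It rose over all tumors (1.33 ± 0.37, adjusted p = 0.0351) and in the other tumors (1.35 ± 0.39, adjusted p = 0.0276), although tumor T-663 lay within the livers' range, and the call over all tumors was lost in 6 of 12 fits without 1 library, those without NT-961, NT-663, NT-941, NTCi-981, NTCi-984 and T-992 (adjusted p up to 0.0803). The call of Lamb2 in the other tumors was lost in 3 of 12 fits without 1 library, those without T-941, T-992 and TCi-981 (adjusted p up to 0.133). The beta chain Lamb1 was at 3.11 to 9.39 CPM in the 6 livers (median 5.57), at 4.1 and 2.54 CPM in Ctnnb1 tumors T-662 and T-663, and at 7.56, 8.53, 15.1 and 13.4 CPM in tumors T-941, TCi-981, T-992 and TCi-984. Lamb1 was lower in Ctnnb1 than in other tumors (-1.70 ± 0.46, adjusted p = 0.0363). The Lamb1 call was lost in 7 of 12 fits without 1 library, all but those without NT-961, NT-941, NT-992, NTCi-981 and NTCi-984. It was also lost with genotype as a covariate and under both replicate blocks. Neither class differed from livers in Lamb1 by the test.

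Lama1, Lama2, Lama3, Lamb3 and Lamc3 passed the test in no comparison without the replicate block. With the block Lama2 was higher in tumors against livers (2.87, adjusted p = 0.0385) and in other tumors against livers (3.60, adjusted p = 0.0279), both on the log2 scale. Lama1 was lower in the same comparisons, with log2 fold changes of -1.66 (adjusted p = 0.0250) and -1.47 (adjusted p = 0.0400). Lama1, an alpha chain best known from the embryo, was at 1.94 to 6.64 CPM in the 6 livers (median 3.02), at 0.0451 and 0.614 CPM in Ctnnb1 tumors T-662 and T-663, and at 0.486, 2.47, 2.4 and 0.909 CPM in tumors T-941, TCi-981, T-992 and TCi-984. The difference of Lama1 between Ctnnb1 tumors and livers was -3.47 ± 1.00, adjusted p = 0.0549. Lamc3 was at 1.42 to 5.3 CPM in the 6 livers (median 3.25) and at 64.2 and 59.1 CPM in tumors T-663 and T-941, with 0.225 to 2.76 CPM in the other 4 tumors. The high tumors were thus 1 of each of 2 driver classes, and the fold change over all tumors was 2.63 ± 1.14, adjusted p = 0.16. Lamb3, a beta chain of epithelial laminins, was at 25.3 CPM in liver NTCi-984 and at most 4.94 CPM in the other 5 livers. Lama2 and Lama3 had median levels of 0.108 and 5.54 CPM in livers and did not pass 2.62 and 3.92 CPM in any tumor.

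In the other tumors Col1a1 and Col1a2 rose and Col5a3 fell, 3 of the 9 fibrillar collagens tested there, and in Ctnnb1 tumors only Col5a1 was called, and it fell. Of all genes, 11.3% rose and 11.5% fell in the other tumors, and 5% rose and 3.2% fell in Ctnnb1 tumors. Col1a1, the alpha-1 chain of type I collagen, was at 0.834 to 17.8 CPM in the 6 livers (median 4.48), at 6.76 and 12.4 CPM in Ctnnb1 tumors T-662 and T-663, and at 29.3, 20.9, 66.8 and 31.7 CPM in tumors T-941, TCi-981, T-992 and TCi-984. All 4 other tumors exceeded the highest liver and both Ctnnb1 tumors lay within the livers' range. Col1a1 had a log2 fold change of 2.33 ± 0.60, adjusted p = 0.0175, in other tumors and 0.45 ± 0.75, adjusted p = 0.767, in Ctnnb1 tumors, and the difference between the classes did not pass the test (-1.88 ± 0.88, adjusted p = 0.176). With the replicate block the adjusted p of Col1a1 in other tumors was 0.0642, and the call was also lost without tumor T-992.

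Col1a2, the partner chain of type I collagen, was at 2.58 to 18.6 CPM in the 6 livers (median 5.68), at 5.18 and 17.1 CPM in Ctnnb1 tumors T-662 and T-663, and at 29.5, 22.9, 63.1 and 22.4 CPM in tumors T-941, TCi-981, T-992 and TCi-984. Its fold change in other tumors was 1.90 ± 0.55, adjusted p = 0.0295, a call lost in 5 of 12 fits without 1 library, those without NT-961, NT-663, T-941, T-992 and TCi-981 (adjusted p up to 0.146). Col3a1, the chain of type III collagen, was at 3.26 to 41.5 CPM in the 6 livers (median 11.9), at 7.62 and 22.6 CPM in Ctnnb1 tumors T-662 and T-663, and at 43.9, 38.2, 139.8 and 43.6 CPM in tumors T-941, TCi-981, T-992 and TCi-984. Tumor T-992 stood far above the rest, livers and tumors overlapped, and the fold change of Col3a1 in other tumors was 1.75 ± 0.64, adjusted p = 0.0686.

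Type V collagen chains nucleate fibrils. Col5a1 was at 4.51 to 14 CPM in the 6 livers (median 9.63), at 1.8 and 2.85 CPM in Ctnnb1 tumors T-662 and T-663, and at 11.9, 10.9, 19.5 and 8.86 CPM in tumors T-941, TCi-981, T-992 and TCi-984. Both Ctnnb1 tumors lay below all livers and all other tumors, with -2.03 ± 0.54, adjusted p = 0.0393, against livers and -2.46 ± 0.56, adjusted p = 0.0189, against other tumors. The call against other tumors was lost without tumor T-662 or T-663 and under both replicate blocks. The call against livers was lost in 7 of 12 fits without 1 library, all but those without NT-941, NTCi-981, NTCi-984, T-992 and TCi-984 (adjusted p up to 0.231). Col5a3 was at 63.9 to 219.9 CPM in the 6 livers (median 124), at 113 and 62.6 CPM in Ctnnb1 tumors T-662 and T-663, and at 54.7, 24.2, 58.3 and 39 CPM in tumors T-941, TCi-981, T-992 and TCi-984. The other tumors lay below every liver, and the test gave -1.56 ± 0.38, adjusted p = 0.013, for other tumors and -0.56 ± 0.47, adjusted p = 0.516, for Ctnnb1 tumors. The call of Col5a3 in other tumors was lost without tumor TCi-981 or TCi-984. Col5a2 was at 106 CPM in liver NT-663 and at 1.11 to 12.5 CPM in the other 5 livers, and the tumors lay between 1.49 and 15.4 CPM.

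Of the other fibrillar collagens, Col27a1 was at 26 to 117 CPM in the 6 livers (median 48.4), at 18.6 and 16.9 CPM in Ctnnb1 tumors T-662 and T-663, and at 27.1, 9.86, 84.3 and 42.3 CPM in tumors T-941, TCi-981, T-992 and TCi-984. Both Ctnnb1 tumors and tumor TCi-981 lay below the livers, and the test gave -1.70 ± 0.60, adjusted p = 0.109, in Ctnnb1 tumors. Col11a2 was highest in tumors T-663 and T-992 (9.33 and 8.17 CPM) and at 1.2 to 4.03 CPM in the 6 livers (median 2.43). Col2a1, Col11a1 and Col24a1 stayed at or below 0.848 CPM in every library.

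**Figure D3:**
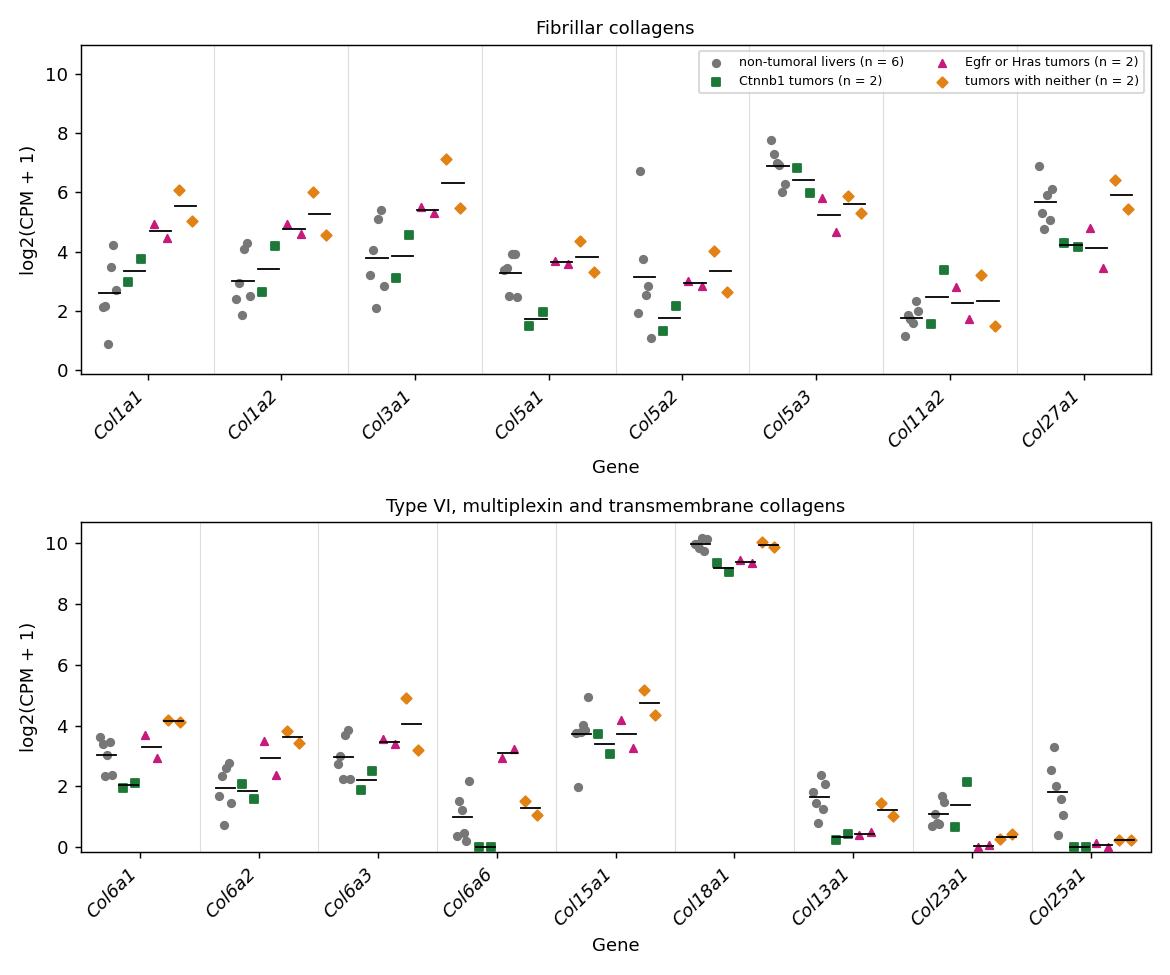
Level of fibrillar, type VI, multiplexin and transmembrane collagens, as log2(CPM + 1), in each library, with livers in grey, Ctnnb1 tumors in green, Egfr or Hras tumors in pink and tumors with neither in orange, and black bars for class means. Col1a1 is above all livers in 4 tumors, Col5a3 is below all livers in the same 4, and Col18a1 is the highest collagen in every library.

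Col18a1, a collagen of vessel and epithelial basement membranes whose end fragment is endostatin, had the highest level of all members. Per kilobase of exon its level in livers was 141 ± 16.7 RPKM (SD, n = 6), followed by Itgb1 at 33.7 ± 3.78, Col5a3 at 18.8 ± 8.34 and Itgb5 at 18.4 ± 4.3. Col5a3 and Itgb5 did not differ beyond their spread. The CPM of Col18a1 was 838 to 1142 CPM (median 987) in livers, with 648 and 519.8 CPM in Ctnnb1 tumors T-662 and T-663 and 687, 637, 1044 and 919.6 CPM in tumors T-941, TCi-981, T-992 and TCi-984. Tumors T-662, T-663, T-941 and TCi-981 lay below the livers, and the test gave -0.79 ± 0.25, adjusted p = 0.0773, in Ctnnb1 tumors and -0.32 ± 0.19, adjusted p = 0.255, in other tumors. Col15a1, the other multiplexin, was at 2.97 to 29.7 CPM in the 6 livers (median 13.1) and at 7.32 to 35.1 CPM in tumors, and the groups overlapped.

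Type VI collagen forms beaded filaments around cells. Col6a1 was at 4.02 to 11.4 CPM in the 6 livers (median 8.43), at 2.88 and 3.37 CPM in Ctnnb1 tumors T-662 and T-663, and at 11.8, 6.57, 17 and 16.3 CPM in tumors T-941, TCi-981, T-992 and TCi-984. The Ctnnb1 tumors lay below all other libraries, and Col6a1 was lower there than in other tumors (-1.99 ± 0.48, adjusted p = 0.0229), while the difference from livers was -1.33 ± 0.45, adjusted p = 0.0922. The call of Col6a1 between the classes was lost without tumor T-662 or T-663 and under both replicate blocks. Col6a2 and Col6a3 differed between the same classes by -1.79 ± 0.73, adjusted p = 0.127 and by -1.89 ± 0.66, adjusted p = 0.0784, neither past the threshold. Col6a6 was at 0 counts in both Ctnnb1 tumors, at 0.168 to 3.49 CPM in the 6 livers (median 0.87), and at 6.59, 8.47, 1.9 and 1.08 CPM in tumors T-941, TCi-981, T-992 and TCi-984. Taking 3 counts per library as the floor (a mean of 0.133 CPM in the 2 Ctnnb1 tumors), Col6a6 was at least 33.8-fold lower there than the mean of the other tumors (adjusted p = 0.0183) and at least 9.44-fold lower than the mean of livers (adjusted p = 0.0399). The first call was lost without tumor T-662 or T-663 and under both replicate blocks. The second call was lost in 8 of 12 fits without 1 library, all but those without NT-961, NT-992, NTCi-981 and NTCi-984. It was also lost with genotype as a covariate, with only the libraries compared and under both replicate blocks.

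Of the 4 transmembrane collagens, which span the cell membrane and are also shed, 3 fell in the other tumors and 2 in Ctnnb1 tumors. Of all genes, 11.5% fell in the other tumors and 3.2% in Ctnnb1 tumors. Col25a1 was at 0.322 to 8.7 CPM in the 6 livers (median 2.52), at 0 counts in both Ctnnb1 tumors and at 0.108, 0, 0.179 and 0.17 CPM in tumors T-941, TCi-981, T-992 and TCi-984. All 6 tumors lay below the lowest liver, though liver NT-992 held only 6 counts and tumor T-992 5. Against the same floor, Ctnnb1 tumors were at least 25.0-fold lower than the mean of livers (adjusted p = 0.0216). That mean was 3.34 CPM, with liver NT-663 highest at 8.7 CPM. This call was lost without tumor T-662 or T-663 and with the replicate block (adjusted p = 0.0959). In other tumors the difference from livers was -5.01 ± 1.04, adjusted p = 0.00711, on the log2 scale. Col13a1 was at 0.758 to 4.24 CPM in the 6 livers (median 2.14), at 0.18 and 0.351 CPM in Ctnnb1 tumors T-662 and T-663, and at 0.324, 0.411, 1.76 and 1.02 CPM in tumors T-941, TCi-981, T-992 and TCi-984. It fell in Ctnnb1 tumors (-3.12 ± 0.76, adjusted p = 0.0281) and in other tumors (-1.70 ± 0.52, adjusted p = 0.0352), the latter with an adjusted p of 0.059 with the replicate block and lost in 7 of 12 fits without 1 library, all but those without NT-663, NT-941, NTCi-981, T-662 and T-663 (adjusted p up to 0.106). The Col13a1 call in Ctnnb1 tumors was lost without tumor T-662 or T-663 and under both replicate blocks. Col23a1 went apart by class, at 0.636 to 2.18 CPM in the 6 livers (median 0.959), at 0.586 and 3.42 CPM in Ctnnb1 tumors T-662 and T-663, and at 0, 0.0514, 0.215 and 0.341 CPM in tumors T-941, TCi-981, T-992 and TCi-984. It fell in the other tumors (-3.69 ± 0.79, adjusted p = 0.00704) and was the only member higher in Ctnnb1 than in other tumors (4.38 ± 0.89, adjusted p = 0.0115), a call lost without tumor T-663 (adjusted p = 0.135). Col17a1, the collagen of hemidesmosomes, was called in no comparison. The FACIT collagens, which decorate fibrils, had 5 of 9 chains tested and none called by driver class, and the anchoring and network collagens 3 of 4 tested and none called, although with the replicate block Col8a1 was higher in tumors (2.48, adjusted p = 0.0342) and in other tumors against livers (2.03, adjusted p = 0.0476), on the log2 scale. Among the untested, Col22a1 was at 9.25 CPM in tumor TCi-981 and at most 0.358 CPM in any other library.

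Among integrins, the laminin-binding alpha subunits Itga6 and Itga3 separated the driver classes in the way the minor type IV chains did. Itga6 (chr2:71745616-71858416, plus strand), which pairs with Itgb1 or Itgb4, was at 1.48 to 4.07 CPM in the 6 livers (median 2.62), at 4.28 and 2.45 CPM in Ctnnb1 tumors T-662 and T-663, and at 59.1, 48.1, 70.6 and 34.1 CPM in tumors T-941, TCi-981, T-992 and TCi-984. The lowest of the 4 other tumors was above every liver and Ctnnb1 tumor. Itga6 rose in other tumors (4.29 ± 0.30, adjusted p = 1.72e-05), was at 0.31 ± 0.36, adjusted p = 0.662, in Ctnnb1 tumors against livers, and differed between the classes by -3.98 ± 0.46, adjusted p = 0.000563. These calls held in each of the 12 fits without 1 library, and with the replicate block the adjusted p between the classes was 0.0884. With liver NT-961 taken as that of mouse M-662 the call between the classes held.

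Itga3, whose only partner is Itgb1, was at 7.69 to 14.6 CPM in the 6 livers (median 10.6), at 8.92 and 9.42 CPM in Ctnnb1 tumors T-662 and T-663, and at 35.8, 67.7, 51.6 and 25.9 CPM in tumors T-941, TCi-981, T-992 and TCi-984. The other tumors were again apart from both livers and Ctnnb1 tumors, by 2.09 ± 0.25, adjusted p = 0.000346, against livers and -2.30 ± 0.39, adjusted p = 0.00495, between the classes. The Itga3 call between the classes was lost without tumor T-662 and under both replicate blocks. Itga7, the third laminin-binding alpha subunit and best known from muscle, was at 19.9 to 46 CPM in the 6 livers (median 27.5), at 29.7 and 34.2 CPM in Ctnnb1 tumors T-662 and T-663, and at 23.4, 12.2, 15.8 and 23.3 CPM in tumors T-941, TCi-981, T-992 and TCi-984. Livers and tumors overlapped, and the fold change of Itga7 in other tumors was -0.70 ± 0.28, adjusted p = 0.0961, with an adjusted p of 0.0321 under the replicate block. Itgb4, the partner of Itga6 in hemidesmosomes, was at 0.228 to 1.06 CPM in the 6 livers (median 0.61) and at 0.514 to 2.54 CPM in tumors, without a call in any comparison.

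Itgb1, the beta subunit of most matrix integrins, was at 115 to 157 CPM in the 6 livers (median 136), at 131 and 133 CPM in Ctnnb1 tumors T-662 and T-663, and at 174, 217, 192 and 202 CPM in tumors T-941, TCi-981, T-992 and TCi-984. The 4 other tumors lay above the livers by a small factor (0.50 ± 0.14, adjusted p = 0.0289), a call lost in 5 of 12 fits without 1 library, those without NT-961, NT-941, T-992, TCi-981 and TCi-984 (adjusted p up to 0.114) and with the replicate block (adjusted p = 0.0875). Itgav, an alpha subunit that binds the RGD sequence of fibronectin and vitronectin, was at 20.3 to 25.7 CPM in the 6 livers (median 23.6), at 24.2 and 25.6 CPM in Ctnnb1 tumors T-662 and T-663, and at 42.6, 41.4, 38.3 and 41.8 CPM in tumors T-941, TCi-981, T-992 and TCi-984. Its levels varied little within a class, and the other tumors stood above both livers (0.79 ± 0.12, adjusted p = 0.00105) and Ctnnb1 tumors (-0.73 ± 0.17, adjusted p = 0.0182 for Ctnnb1 against other tumors). The second call was lost without tumor T-662 or T-663, under both replicate blocks and with only the libraries compared. Itgb5, a partner of Itgav, was at 50.9 to 91.8 CPM in the 6 livers (median 61.8), at 72 and 68 CPM in Ctnnb1 tumors T-662 and T-663, and at 90.5, 86.3, 116 and 95.1 CPM in tumors T-941, TCi-981, T-992 and TCi-984. Tumor TCi-981 and tumor T-941 lay within the livers' range. Itgb5 rose in other tumors by 0.55 ± 0.17, adjusted p = 0.0398, with an adjusted p of 0.0709 with the replicate block, and the call was lost in 9 of 12 fits without 1 library, all but those without NT-992, NTCi-984 and T-663 (adjusted p up to 0.145). Itgb3, another partner of Itgav and of the platelet subunit Itga2b, was at 1.98 to 5.23 CPM in the 6 livers (median 3.85), at 0.901 and 3.24 CPM in Ctnnb1 tumors T-662 and T-663, and at 29.2, 12.4, 2.47 and 6.42 CPM in tumors T-941, TCi-981, T-992 and TCi-984. The Egfr and Hras tumors were the highest, and Itgb3 was lower in Ctnnb1 than in other tumors (-2.22 ± 0.64, adjusted p = 0.0436), a call lost in 7 of 12 fits without 1 library, all but those without NT-961, NTCi-981, NTCi-984, T-663 and T-992 (adjusted p up to 0.243). The Itgb3 call was also lost with genotype as a covariate, with only the libraries compared and under both replicate blocks. Itga5, the fibronectin receptor subunit, was at 24.4 to 51.2 CPM in the 6 livers (median 45.2) and at 44 to 73.4 CPM in tumors. Itga5, Itga8, Itga2b, Itga11 and the non-subunits Itgb1bp1 and Itgb3bp passed the test in no comparison. Itgb6, Itgb8 and the non-subunits Itgb1bp2 and Itgbl1 had too few reads to be tested.

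Of the 4 collagen-binding alpha subunits, Itga2 alone passed the test, and in 1 comparison, other tumors against livers, where 11.3% of all genes rose. Itga1 was at 7.74 to 14.9 CPM in the 6 livers (median 8.89), at 5.9 and 8.37 CPM in Ctnnb1 tumors T-662 and T-663, and at 8.85, 18.6, 16.9 and 25.2 CPM in tumors T-941, TCi-981, T-992 and TCi-984. Its fold change in other tumors was 0.77 ± 0.27, adjusted p = 0.0579, and between the classes -1.27 ± 0.39, adjusted p = 0.0532. Itga2 was at 0 to 0.824 CPM in the 6 livers (median 0.0379), at 0.0451 and 0.132 CPM in Ctnnb1 tumors T-662 and T-663, and at 1.35, 1.64, 1.79 and 1.99 CPM in tumors T-941, TCi-981, T-992 and TCi-984. It rose in the other tumors (3.09 ± 0.99, adjusted p = 0.0426) at a low level, with an adjusted p of 0.0543 with the replicate block, and the call was lost in 11 of 12 fits without 1 library, all but that without NTCi-984 (adjusted p up to 0.1). Itga10 was at 2.95 to 4.7 CPM in the 6 livers (median 3.66) and at 2.47 to 4.69 CPM in tumors, and it shares 33.5% of its exon bases with another annotated gene on the same strand.

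The leukocyte subunits Itgb2, Itgal and Itgax were highest in the libraries of mouse M-981. Itgb2, the beta subunit of leukocytes, was at 3.26 to 35.2 CPM in the 6 livers (median 4.04), at 6.22 and 20.4 CPM in Ctnnb1 tumors T-662 and T-663, and at 12.4, 45.9, 9.14 and 7.89 CPM in tumors T-941, TCi-981, T-992 and TCi-984. Liver NTCi-981 was the highest liver and tumor TCi-981 the highest tumor, and the same libraries were highest for Itgal (56.9 and 52.2 CPM) and Itgax (13.4 and 30.5 CPM). The summed macrophage markers (10 genes) were also highest there, at 1441 CPM in liver NTCi-981 and 1004 CPM in tumor TCi-981, against 181 to 358 CPM in the other livers and 119 to 655 CPM in the other tumors, and their part in the integrin levels was not tested. With the replicate block Itgax was higher in tumors against livers (1.93, adjusted p = 0.0137) and in other tumors against livers (1.82, adjusted p = 0.0236), on the log2 scale. Without the block Itgad was the 1 leukocyte subunit called, at 0 to 0.682 CPM in the 6 livers (median 0.0859), at 1.89 and 7.14 CPM in Ctnnb1 tumors T-662 and T-663, and at 0.486, 0.411, 0.573 and 0.114 CPM in tumors T-941, TCi-981, T-992 and TCi-984. It rose in Ctnnb1 tumors (4.66 ± 1.00, adjusted p = 0.017), a call lost without tumor T-663 (adjusted p = 0.187). Itgam, Itgae, Itgb7, Itgb2l, Itga4 and Itga9 passed the test in no comparison, and Itgam shares 68.7% of its exon bases with another annotated gene on the same strand.

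**Figure D4:**
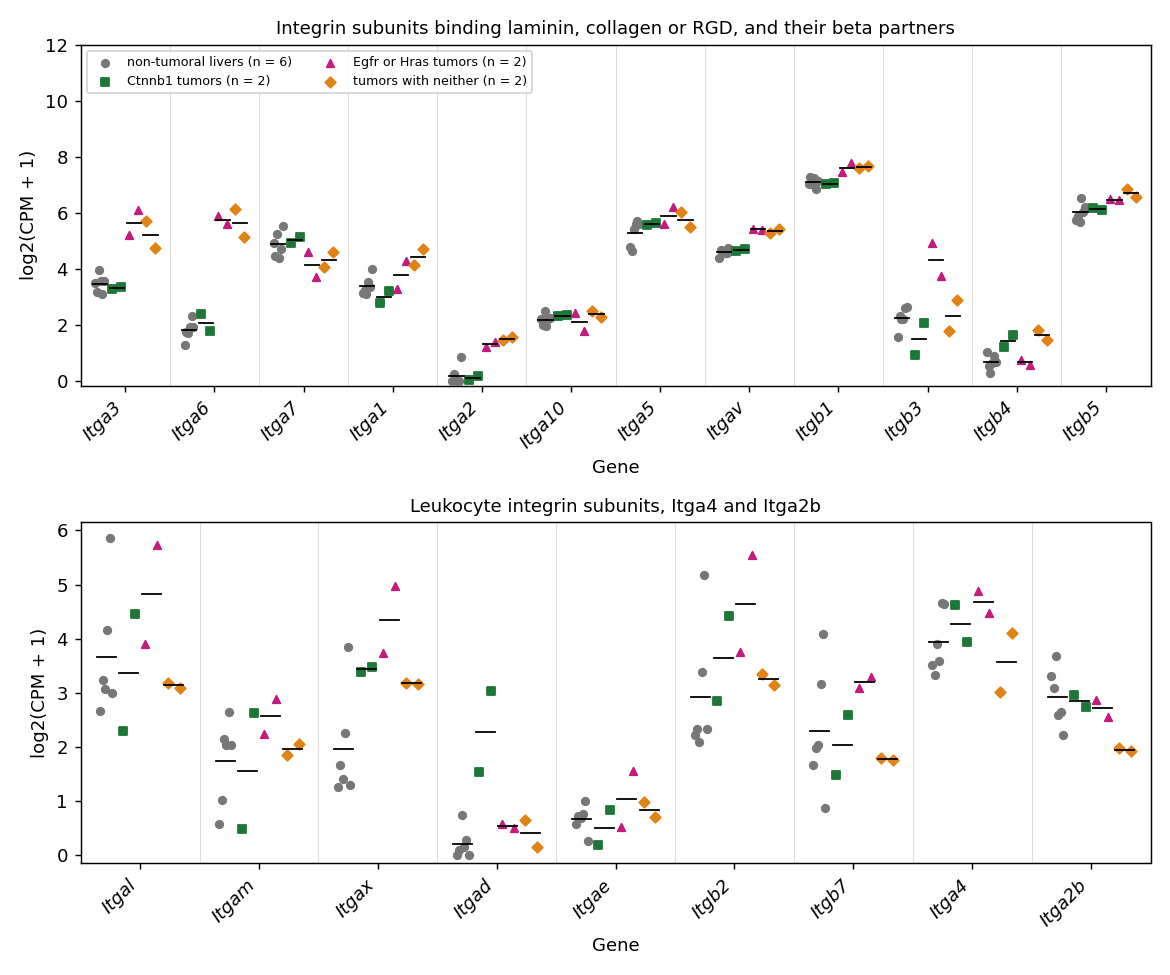
Level of integrin subunits, as log2(CPM + 1), in each library, with livers in grey, Ctnnb1 tumors in green, Egfr or Hras tumors in pink and tumors with neither in orange, and black bars for class means. Itga6, Itga3 and Itgav are above all livers in 4 tumors, and in the Ctnnb1 tumors only Itga6 in tumor T-662 is above the livers' range, by little, and liver NTCi-981 and tumor TCi-981 are highest for Itgb2, Itgal and Itgax.

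Between the Egfr or Hras tumors and the tumors with neither, no member was called and 0% of all genes were, with 3 members higher and 5 lower at an unadjusted p below 0.05, and 1 higher by DESeq2. Over all 15182 genes, 592 were higher and 739 lower at that p, and 54 higher and 51 lower by DESeq2. Col4a3 had the smallest p (1.87 ± 0.30, adjusted p = 0.138), the 2 Egfr or Hras tumors lying at 83.3 and 64.5 CPM and the 2 with neither at 20.8 and 18.7 CPM. The spread in this comparison was set by all 4 groups of libraries, with 2 tumors in either class.

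By genotype, p21+/Tert tumors against p21+/Tert livers had 4 members higher (Lama5, Col4a1, Itga6 and Col4a2) and 2 lower (Col25a1 and Col5a3) of 71 tested, where 4.2% of all genes rose and 2.3% fell. Lama5 gave 3.21 ± 0.40, adjusted p = 0.00293, Itga6 3.90 ± 0.94, adjusted p = 0.0336, Col4a1 2.61 ± 0.59, adjusted p = 0.0258 and Col4a2 2.17 ± 0.57, adjusted p = 0.0476. With the replicate block 2 rose, Lama5 and Col11a2, and 1 fell, Col5a3, where 425 of all genes rose and 235 fell. The 4 became 1 without liver NT-961, NT-663 or NT-941 or without tumor T-941 or T-992, 9 without tumor T-662 and 7 without tumor T-663, and the 2 lower members became 0 without liver NT-961 or NT-663 or tumor T-941, 1 without liver NT-941, NT-992, NTCi-981 or NTCi-984 or tumor T-663, and otherwise up to 3. Of all genes, 637 rose in the p21+/Tert main fit, and 151, 222 and 258 without liver NT-961, NT-663 and NT-941. Without tumor T-941 and T-992 these were 407 and 479, and without tumor T-662 and T-663 754 and 615. In p21+/TertCi tumors, with 2 tumors and 2 livers, no member and 0% of all genes were called, and 16 members were higher and 4 lower at an unadjusted p below 0.05, with 4 higher by DESeq2. Over all 15182 genes, 974 were higher and 644 lower at that p, and 306 higher and 69 lower by DESeq2. The fold changes there were 2.55 ± 0.55 for Lama5, 2.59 ± 0.55 for Lama4 and 2.98 ± 0.84 for Col4a2, each with an adjusted p of 0.2 or more. The difference between the genotypes was called for no member by edgeR or DESeq2 and for 0% of all genes by edgeR (9 higher and 1 lower by DESeq2). At an unadjusted p below 0.05 there were 2 members on either side, and 236 higher and 320 lower of all genes.

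Partners of these proteins were read from lists of known genes. Over all genes 11.3% rose and 11.5% fell in the other tumors, and 5% rose and 3.2% fell in Ctnnb1 tumors. Of 16 basement membrane partners tested, 5 rose in the other tumors and none fell, and in Ctnnb1 tumors 1 rose. Nid1, the nidogen that joins laminin to type IV collagen, rose in other tumors by 4.43 ± 0.58, adjusted p = 0.000494, Sparc, a collagen-binding protein, by 1.92 ± 0.31, adjusted p = 0.00152, Hspg2 (perlecan) by 1.52 ± 0.30, adjusted p = 0.00495 and Smoc2, a relative of Sparc, by 3.09 ± 0.80, adjusted p = 0.0175. The 1 that rose in Ctnnb1 tumors was Fbln1 (3.61 ± 0.80, adjusted p = 0.0188). Of 29 genes of collagen processing tested, 7 rose in the other tumors and 1 fell, and 3 fell in Ctnnb1 tumors. Crtap, a subunit of the prolyl 3-hydroxylase complex, rose in other tumors by 1.85 ± 0.28, adjusted p = 0.00118 and the lysyl oxidase Loxl2 by 2.15 ± 0.36, adjusted p = 0.00203, and Bmp1, the procollagen C-proteinase, fell in Ctnnb1 tumors (-1.66 ± 0.38, adjusted p = 0.021).

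Among 15 interstitial matrix partners tested, 2 rose in other tumors, Thbs1 (2.98 ± 0.46, adjusted p = 0.00122) and Fbn1 (1.77 ± 0.50, adjusted p = 0.0251), and 1 fell in Ctnnb1 tumors, Dcn (decorin, -3.08 ± 0.83, adjusted p = 0.043). Of 12 matrix receptors outside the integrins, 3 rose in other tumors and none passed the test in Ctnnb1 tumors. Ddr1, a receptor tyrosine kinase for collagen, rose by 3.91 ± 0.45, adjusted p = 0.000255, and Bcam, a receptor of the laminin alpha-5 chain, by 1.25 ± 0.37, adjusted p = 0.0315. Of 24 adaptors that link integrins to the cytoskeleton, 5 rose and 4 fell in other tumors and 3 rose in Ctnnb1 tumors. For all these lists, the shares over all genes were 11.3% higher and 11.5% lower in other tumors, and 5% and 3.2% in Ctnnb1 tumors. Dst, which encodes the hemidesmosome linker BPAG1, rose in both (1.43 ± 0.22, adjusted p = 0.00118, and 1.04 ± 0.27, adjusted p = 0.0345).

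Markers of the cells that can hold these transcripts moved with some of the members. Against livers, 11.3% of all genes were higher and 11.5% lower in other tumors, and 5% and 3.2% in Ctnnb1 tumors. The 10 capillary and vascular endothelial markers summed to 33 to 143 CPM in livers, 76.9 to 105 in Ctnnb1 tumors and 205 to 286 in other tumors, with 4 of 10 tested higher in Ctnnb1 tumors than in livers, 8 of 10 higher in other tumors and none lower. Apln, Aplnr or Rgcc were at 0 in 5 of the 6 livers, and no marker of this list was at 0 in a tumor. The 8 sinusoidal endothelial markers summed to 90.4 to 274 CPM in livers, 81.2 to 172 in Ctnnb1 tumors and 175 to 423 in other tumors, with 1 of 8 higher in other tumors. The 16 stellate cell and fibroblast markers summed to 91.1 to 334 CPM in livers, 56.1 to 80.3 in Ctnnb1 tumors and 134 to 236 in other tumors, with 6 of 16 lower in Ctnnb1 tumors than in livers and 2 higher and 2 lower in other tumors. Hhip was at 0 in tumors T-662, T-663 and TCi-981. The 9 bile duct markers summed to 69.8 to 163 CPM in livers, 35.7 to 72 in Ctnnb1 tumors and 123 to 1136 in other tumors, and Krt7, Krt19 and Cftr were at 0 in tumor TCi-981. The 8 hepatocyte markers summed to 34873 to 59362 CPM in livers, 18553 to 36543 in Ctnnb1 tumors and 72603 to 99357 in other tumors, with none at 0 in any library and 3 of 8 lower in Ctnnb1 tumors than in livers. The part of these cell types in the members' levels was not tested.

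**Figure D5:**
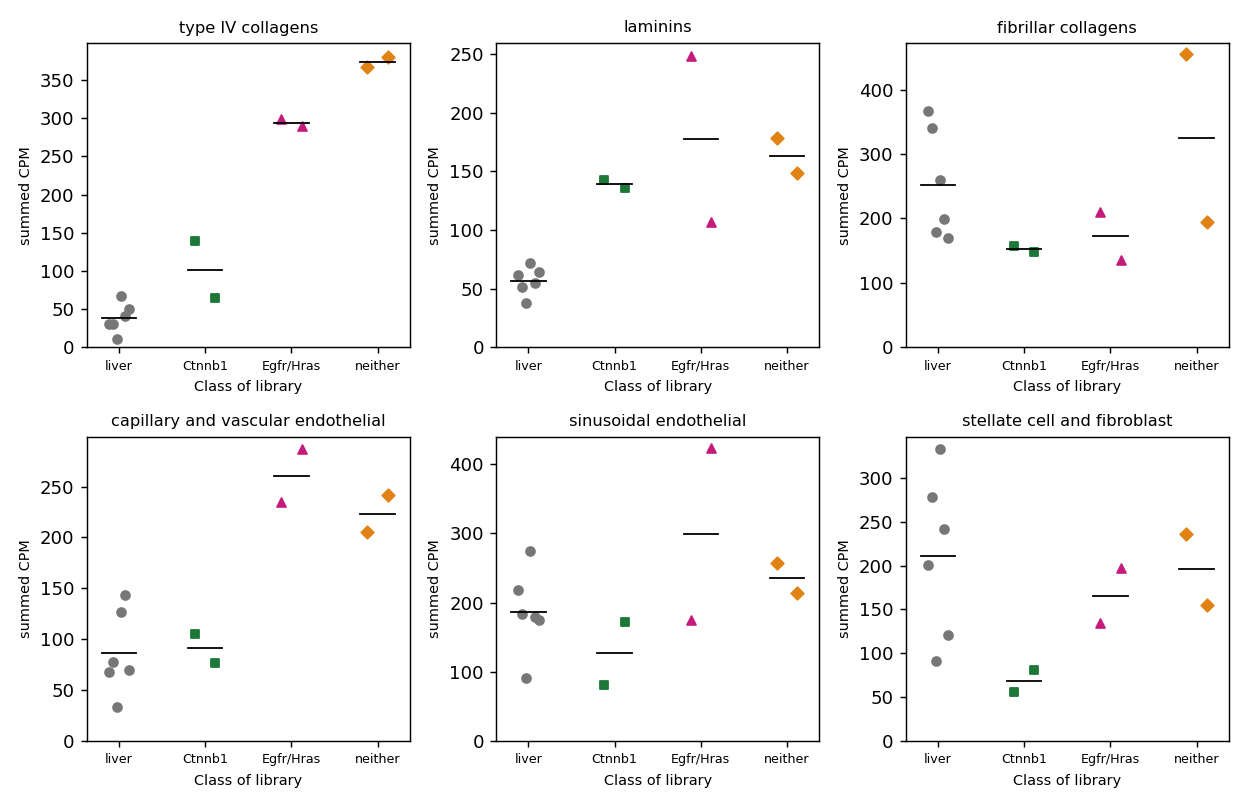
Summed CPM of 3 member lists (type IV collagens, laminins and fibrillar collagens, top) and 3 marker lists (bottom) in each library, by class of library, with black bars for class means and axes from 0. Summed type IV collagens lie at 11.4 to 66.7 in livers, 64.9 and 139 in Ctnnb1 tumors and 289.5 to 379.7 in the 4 other tumors, whereas summed fibrillar collagens overlap between livers and tumors.

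Summed over their lists, the 6 type IV collagens overlapped with the livers in tumor T-663 only, and the 11 laminins lay at 37.8 to 71.7 CPM in livers and 107 to 249 CPM in tumors. The 11 fibrillar collagens summed to 169.6 to 366 CPM in livers, 147 to 157 in Ctnnb1 tumors and 136 to 456 in other tumors. Within the last list Col5a3 fell in the other tumors while Col1a1 and Col1a2 rose.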

How the data were processed

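Poly(A) RNA of 6 tumors and 6 livers was sequenced as paired reads. The authors filtered reads by quality, aligned them with Subread to mm10 plus the transgene reporter and deposited raw counts per gene from featureCounts 1.6.4. The annotation release, strandedness and the treatment of multi-mapping reads are not given in the sources used here, so reads of overlapping genes may be shared or lost. The study corrected for the sequencing run, but the run of each library is not given in the sources used here, so its part was not tested.

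From these counts, genes were filtered with filterByExpr, scaled by TMM and tested with the quasi-likelihood F test of edgeR 4.0.16 in R 4.3.3, with an adjusted p threshold of 0.05 and SE as the log2 fold change over the root of F. Tumors against livers had a model of 2 groups, driver classes a model of 4 classes and genotypes a model of 4 groups. The edgeR test was also tried on data simulated from the means and spread of these counts. Of 100 genes changed 4-fold it found 85 in tumors against livers, 83 in other tumors and 63 in Ctnnb1 tumors against livers. It found 55 in Ctnnb1 against other tumors and 34 in Egfr or Hras tumors against those with neither. Of 100 genes changed 2-fold it found 36, 31, 7, 2 and 0 in the same order. Alternatives were DESeq2 1.42.0, RLE factors, genes with at least 1 count, only the libraries compared, genotype as a covariate, the replicate block and leaving out each library. Levels per kilobase used GENCODE vM21 exon lengths. The members and gene lists were chosen with earlier results of these data known. Genes named were members past the threshold, up to 30 per comparison, and all type IV collagens, laminins, fibrillar collagens and integrin subunits whatever they did, and Col22a1 and Col17a1 were named after their values were seen. Of partner genes, those past the threshold were eligible. 1 member is not reported here.

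Total counts were 14571716 to 23932529 in livers and 17471387 to 26170661 in tumors, and a floor of 3 counts equals 0.107 to 0.228 CPM. Tumor and liver of 1 number come from 1 mouse, which pairs 5 mice (M-663, M-941, M-992, M-981 and M-984). Correlations of their deviations from the group means were 0.0394, 0.00538 and 0.427 for the 3 p21+/Tert mice in that order, against -0.284 to 0.166 for tumor and liver of different p21+/Tert mice, leaving out tumor T-662 with liver NT-961 (0.169). The p21+/TertCi groups hold 2 libraries each, so centring gives both mice the same value (0.542), which is no separate check of each.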

Additional observations from a re-analysis of the deposited data

Results flagged for a closer look

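In 15 of 111 groups of 6 libraries tested, 1 library stood apart from the other 5 by Dixon's test (critical value 0.625). The test's chance rate of about 1 in 20 is for normally distributed values and separate groups. These were raw CPM, the groups shared libraries and the tumor groups pooled driver classes, so the 15 cannot be set against that rate. In mouse M-981 these were Itgb2 (35.2 CPM in the liver and 45.9 CPM in the tumor), Itgal (56.9 and 52.2 CPM), Itgax (13.4 and 30.5 CPM) and, as a low value, Itga10 in the tumor (2.47 CPM). Tumor T-992 stood apart for Col3a1 (139.8 CPM) and Col6a3 (28.7 CPM), and tumor T-663 for Col23a1 (3.42 CPM) and Itgad (7.14 CPM). Among livers, Col5a2 was at 106 CPM in liver NT-663 with the next liver at 12.5 CPM, Lamb3 at 25.3 CPM and Itga2 at 0.824 CPM in liver NTCi-984, and Lama2 at 1.40 CPM in liver NT-992.

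For 13 members the level differed between Ctnnb1 tumors and other tumors by edgeR's test of these classes against each other, which uses no liver level. All 13 calls were lost with the replicate block by label numbers, which leaves tumor T-662 with no liver. The log2 difference was -5.13 for Col4a3, -5.05 for Col4a4, -4.07 for Col4a5, -3.98 for Itga6, -2.30 for Itga3, -0.73 for Itgav, -1.32 for Lamc1, -1.70 for Lamb1, -2.46 for Col5a1, -1.99 for Col6a1, -2.22 for Itgb3 and 4.38 for Col23a1. The fitted value of -9.03 for Col6a6 depends on the prior count, since both Ctnnb1 tumors were at 0.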

How the results depend on the processing

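No called member changed direction. Over 58 called member results and 1071 alternatives, 855 kept the call and 216 lost it, 157 of these in fits without 1 library, 29 under the replicate block, 19 under the block with liver NT-961 taken as that of mouse M-662, 8 with only the libraries compared and 3 with genotype as a covariate. Members lower in tumors than in livers (0) were 2 by DESeq2, 1 with genes of at least 1 count and 3 under either replicate block. Of all genes 954, 475, and 837 or 1008 were lower in these fits, against 540 in the main fit. Ctnnb1 against other tumors gave, by DESeq2, 2 higher and 21 lower, under the replicate block 0 and 1, under the block with liver NT-961 as mouse M-662 4 lower, and with only the libraries compared 0 higher. Over all genes DESeq2 gave 1460 higher and 1651 lower in this comparison, against 1026 and 869 by edgeR. Ctnnb1 tumors against livers gave, by DESeq2, 4 higher and 8 lower, under the replicate block 0 and 1, and under the block with liver NT-961 as mouse M-662 4 higher. Here DESeq2 called 1051 of all genes higher and 1075 lower, against 759 and 486 by edgeR. DESeq2 gave 1 higher in Egfr or Hras tumors against those with neither, 16 higher in p21+/Tert and 4 higher in p21+/TertCi tumors against livers. Of all genes, 54, 1335 and 306 were higher by DESeq2 in these 3 comparisons, against 0, 637 and 0 by edgeR. In p21+/Tert tumors the replicate block gave 2 higher and 1 lower and only the libraries compared 1 lower. The cause of these differences was not tested.

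Without 1 library, tumors against livers ranged over 7 to 15 higher and 0 to 2 lower, Ctnnb1 against other tumors over 0 to 2 and 3 to 14, Ctnnb1 tumors against livers over 1 to 3 and 0 to 4, other tumors against livers over 12 to 20 and 2 to 4, and p21+/Tert tumors over 1 to 9 and 0 to 3. The remaining 3 comparisons stayed at 0. Counts over all genes moved in these fits too, in tumors against livers over 581 to 1170 higher and 282 to 818 lower. Where a class lost a library, the lone tumor was assumed to vary like the other groups. Members near 0 CPM, such as Itga2 and Col4a4 in livers, are limited by depth.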
